A study of Mus musculus with 12 samples.

Results

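The genes described here are 10 that mark or serve regulatory T cells and costimulation: the transcription factors Foxp3 and Ikzf2, the 3 chains of the interleukin-2 (IL-2) receptor Il2ra, Il2rb and Il2rg, and the 5 TNF receptor family members Tnfrsf4, Tnfrsf9, Tnfrsf14, Tnfrsf18 and Cd27. They were chosen by name, and all 10 were found among the 54532 genes of the deposited count table. RNA was sequenced from 12 sorted tumours that grew from wild-type cells of the pigmented mouse melanoma line B16F10, which were implanted intradermally on either leg of 8- to 12-week-old males (day 0). The 6 Ctrl libraries came from Trex1 wt/fl-R26CreERT2-ki/wt hosts and the 6 iKO libraries from Trex1 fl/fl-R26CreERT2-ki/wt hosts. Trex1 encodes a cytosolic DNA exonuclease, and R26CreERT2 is a Cre recombinase expressed from the broadly active Rosa26 locus that works once tamoxifen is given. Hosts of both groups were given tamoxifen, 1 mg daily over 3 days beginning on day 5, and the harvest was on day 14, so the Ctrl hosts also carried the active Cre and 1 floxed copy. The comparison addresses what loss of Trex1 in the host does to these transcripts in a tumour whose implanted cells are wild type. The cell type label describes tissue negative for CD45, the common leukocyte protein, and for CD31, an endothelial protein, whereas the protocol text joins them with "or". The labels tie no library to a mouse, and since each mouse carried a tumour on both legs, libraries of a group may share a mouse. The n of 6 therefore counts libraries, and p-values reflect only how much these libraries vary, which may be technical and may be less than between mice.

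Regulatory T cells are CD4 T cells that restrain immune responses. Foxp3 is the transcription factor that defines them, Ikzf2 (Helios) is a related marker, and the high-affinity IL-2 receptor, assembled from the alpha, beta and common gamma chains, keeps them alive. The TNF receptors OX40 (Tnfrsf4), CD137 (Tnfrsf9), GITR (Tnfrsf18), HVEM (Tnfrsf14) and CD27 (Cd27) pass costimulatory signals through TRAF adaptors to NF-kappaB in T cells. None of the 10 except Foxp3 is restricted to regulatory T cells: activated CD8 T cells and natural killer cells use the beta chain, the common gamma chain is shared by lymphocytes and many myeloid cells, and HVEM is made by many cell types.

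The promoters are shown because 3 kinds of element are known in genes of this type. These are STAT sites, which IL-2 receptor signalling uses, kappaB sites, which the TNF receptors' own pathway uses, and the interferon response element. The windows were the 250 bases before each RefSeq start (GRCm38.p6), which were given for 8 of the 10 genes, in 10 windows. Both strands were searched for TTCNNNGAA (STAT), for TTTC followed by any 2 bases and TTTC again (interferon response) and for the kappaB motif. No match overlapped one of another motif, and in Il2ra and Tnfrsf9 the capitals cover 2 kappaB matches shifted by 1 base. The whole Il2ra window, chr2:11642542-11642791 on the plus strand, holds no annotated exon, and its kappaB matches are in capitals.
Il2ra window: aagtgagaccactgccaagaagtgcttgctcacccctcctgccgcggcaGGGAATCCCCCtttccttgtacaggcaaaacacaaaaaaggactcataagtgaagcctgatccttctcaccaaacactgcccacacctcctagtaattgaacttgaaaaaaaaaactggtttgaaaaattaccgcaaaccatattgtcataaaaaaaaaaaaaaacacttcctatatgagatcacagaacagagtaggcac
The other matches are given with their flanks, 30 bases each, with the matched bases in capitals.
Tnfrsf9, STAT, chr4:150927853-150927882, plus strand: caacagctgaTTCCAAGAAacccttcagag
Tnfrsf9, kappaB, chr4:150927947-150927976, plus strand: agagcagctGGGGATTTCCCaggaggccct
Tnfrsf18, STAT, chr4:156026213-156026242, plus strand: tgctctacacTTCACAGAAggcctttacaa
Foxp3, STAT, chrX:7580334-7580363, plus strand: gagctctgttTTCCAAGAAcgggcattagt
Tnfrsf14, interferon response, chr4:154928122-154928151, minus strand: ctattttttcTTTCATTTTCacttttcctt
The STAT motif was in 3 of the 10 windows and in 7.02% of all 32851 promoter windows of that length, the kappaB motif in 2 against 7.25%, and the interferon response motif in 1 against 2.98%. The Tnfrsf9 window with both matches belongs to the start at position 150927999 of chromosome 4, downstream of another annotated start at 150920155 whose window held no match, and the Foxp3 match lies before the second of its annotated starts. Unlike that of Il2ra, these windows overlap annotated exons: all 250 bases for the matched Foxp3 window, 158 for Tnfrsf18, 125 for Tnfrsf14 and 81 for the matched Tnfrsf9 window. A match is a description of the letters only.

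Library totals ranged from 34.3 to 45.8 M counts in Ctrl and from 29.8 to 35.5 M in iKO. A count of 0 therefore allows up to 0.0655 to 0.101 counts per 1e6 of library total in a library, without TMM scaling. CPM elsewhere are counts per 1e6 of library total, scaled by TMM. Trex1 had 0 counts in all 12 libraries, so the table offers no check of the genotypes. Transcripts of the sorted-out leukocytes were present and differed between the groups: Ptprc, which encodes CD45, was at 0.158 to 15.6 CPM in Ctrl and at 17.4 to 345 CPM in iKO. The summed CD3 chains Cd3d, Cd3e and Cd3g, which define T cells, had 0 counts in Ctrl 1, Ctrl 2 and Ctrl 6, 2 in Ctrl 3, 6 in Ctrl 4 and 44 in Ctrl 5, against 95 in iKO 1 and 625 to 1239 in the other iKO libraries. On a leukocyte score, the mean log2 CPM of 10 leukocyte markers, Ctrl 5 (4.41) lay above iKO 1 (4.01), while the other Ctrl libraries were at 0.57 to 2.02 and the other iKO libraries at 6.60 to 7.39. Results are therefore also given without Ctrl 5 and iKO 1. In iKO 2 and iKO 3 Xist, a transcript of female cells, stood at 219 and 117 CPM although hosts are labelled male, against 8.39 CPM or less elsewhere. In such bulk libraries, fewer cells of a type and less RNA per cell cannot be told apart.

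Of the 10 genes, 9 passed the filter on low counts and Foxp3 did not. All 9 tested genes were higher in iKO and 0 were lower (edgeR, adjusted p under 0.05, and 0 lower at an unadjusted p under 0.05), where 25.0% of the 16164 tested genes were called higher and 21.4% lower. The log2 fold changes ran from 0.98 to 6.31 with a median of 3.45, beside a median of 0.023 over all tested genes. In 8 of the 9 the change reached a log2 fold change of 1 or more, and 11.7% of all tested genes were called higher with a change of that size. The 6 iKO libraries all lay above the 6 Ctrl libraries for 6 of the 9 genes (Il2rb, Il2rg, Ikzf2, Tnfrsf9, Tnfrsf14 and Cd27), as for 11.8% of tested genes, and for none did they all lie below, as for 11.1% of tested genes. Genes close to 0 in Ctrl can pass the filter only through their iKO counts, so these counts describe the 9 and are no support for a pattern. Without Ctrl 5 and iKO 1 the same 9 were higher and 0 lower (edgeR, 0 also at an unadjusted p under 0.05), against 27.0% and 20.3% of the genes tested then. The lowest iKO library was iKO 1 for all 10 genes, Foxp3 included, and the highest Ctrl library was Ctrl 5 for 5 of them.

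**Figure D1:**
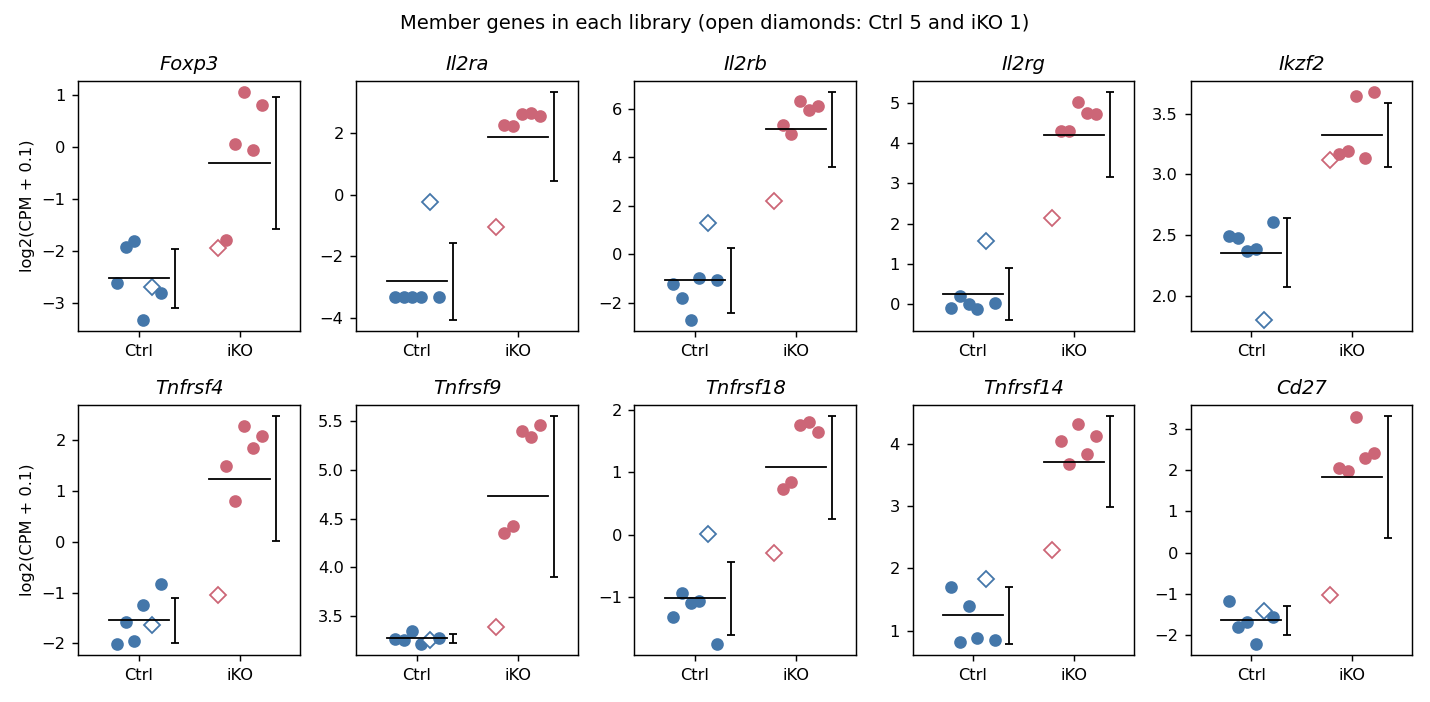
Level of each of the 10 genes in every library, as log2(CPM + 0.1) on the vertical axis of each panel, by group. Points are libraries, with open diamonds for Ctrl 5 and iKO 1, lines are group means and bars are the SD over 6 libraries. The iKO 1 diamond is the lowest iKO point in all 10 panels.

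Foxp3 (ENSMUSG00000039521, mm10 chromosome X, 7579676 to 7595243, plus strand) was scarce in every library. Its counts in Ctrl 1 to 6 were 3, 7, 7, 0, 2 and 2, and in iKO 1 to 6 they were 5, 6, 33, 58, 29 and 56. Thus 4 iKO libraries held 29 or more counts, while iKO 1 and iKO 2 were within the Ctrl counts. In CPM the groups overlapped as well: iKO 1, at 0.162 CPM, lay below the highest Ctrl library, at 0.185 CPM. The mean was 0.0852 ± 0.0726 CPM in Ctrl and 0.963 ± 0.742 CPM in iKO (SD, n = 6 each). The 21 Ctrl and 187 iKO counts give a depth-adjusted ratio of 10.9 (95% interval 6.93 to 18.0, counting error only). The Ctrl counts did not follow the CD3 chains: Ctrl 2 and Ctrl 3, with 7 Foxp3 counts each, held 0 and 2 CD3 counts. Ctrl 5 held 44 CD3 counts and 2 of Foxp3. No test of Foxp3 was part of the fit with the filter, and with no filter the log2 fold change was 3.38 ± 0.70 (SE, edgeR, adjusted p = 0.00113). Other annotated genes share 31.5% of the Foxp3 exon bases, among them Flicr, a noncoding RNA of the same locus, with 18.6%. Flicr did not pass the test (log2 fold change 0.017, edgeR, adjusted p = 0.981), at 0.529 CPM in Ctrl and 0.536 CPM in iKO, and the libraries kept no strand, so reads of the shared bases cannot be told apart.

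Ikzf2 (ENSMUSG00000025997, mm10 chromosome 1, 69531214 to 69687245, minus strand), which encodes the Ikaros family factor Helios, had the smallest fold change of the 9 tested genes and the most even one. Ctrl libraries other than Ctrl 5 stood at 5.06 CPM or more (median of all 6, 5.30) and Ctrl 5 at 3.39 CPM, whereas the iKO libraries ranged from 8.59 to 12.7 CPM (median 8.95), and the groups did not overlap. The lowest Ctrl value came from Ctrl 5, the Ctrl library with the most leukocyte transcripts, and iKO 1 at 8.59 CPM was close to iKO 2, iKO 3 and iKO 5 at 8.88, 9.02 and 8.70. The mean went from 5.10 ± 0.90 to 10.05 ± 1.94 CPM (SD, n = 6 each), with 0.98 ± 0.16 as log2 fold change (SE, edgeR, adjusted p = 0.000274), and the value was 0.94 without Ctrl 5 and iKO 1. Of its exon bases 1.24% are shared with Gm29114, which had 2 counts in each group.

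Il2ra (ENSMUSG00000026770, mm10 chromosome 2, 11642807 to 11693193, plus strand) encodes the alpha chain, CD25, which makes the IL-2 receptor one of high affinity. It had 0 counts in 5 Ctrl libraries and 27 in Ctrl 5, against 12 in iKO 1 and 150, 164, 180, 210 and 195 in iKO 2 to 6. The single Ctrl library with counts therefore stood above iKO 1, at 0.745 against 0.388 CPM, and the other iKO libraries lay between 4.65 and 6.20 CPM. For Il2ra the log2 fold change was 5.27 ± 1.22 (SE, edgeR, adjusted p = 0.00492). Without Ctrl 5 the contrast was 0 against 911 counts, at least 316-fold higher in iKO with 3 counts over the group as the floor.

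Il2rb (ENSMUSG00000068227, mm10 chromosome 15, 78479256 to 78495271, minus strand) encodes the beta chain, CD122, which signals for IL-2 and IL-15. It was the member with the largest fold change. Ctrl libraries ranged from 0.0527 to 2.37 CPM (median 0.347) and iKO libraries from 4.52 to 81.4 CPM (median 50.8). The highest Ctrl value was that of Ctrl 5 and the lowest iKO value that of iKO 1, and the groups did not overlap. From 0.619 ± 0.869 to 48.0 ± 28.2 CPM (SD, n = 6 each), the log2 fold change was 6.31 ± 0.93 (SE, edgeR, adjusted p = 0.000409). Ctrl 5 held 86 of the 142 Ctrl counts, and without it the depth-adjusted ratio of counts went from 80.3 to 173 (95% counting interval 133 to 229) and the log2 fold change to 7.48.

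Il2rg (ENSMUSG00000031304, mm10 chromosome X, 101264378 to 101268255, minus strand) encodes the common gamma chain, which the receptors for IL-4, IL-7, IL-9, IL-15 and IL-21 also use. Ctrl libraries ranged from 0.816 to 2.84 CPM (median 0.908), with Ctrl 5 the highest, and iKO libraries from 4.27 to 32.4 CPM (median 22.9), with iKO 1 the lowest. The groups did not overlap. Il2rg had a log2 fold change of 4.13 ± 0.51 (SE, edgeR, adjusted p = 0.000110), which stayed between 3.97 and 4.58 when each library was left out in turn. Gm20489, an overlapping gene model, shares 30.5% of its exon bases and had 0 Ctrl and 3 iKO counts.

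Among the TNF receptors, Tnfrsf9 (ENSMUSG00000028965, mm10 chromosome 4, 150914562 to 150946102, plus strand), which encodes CD137, had the highest Ctrl level of the 10 genes per kb of gene length. The 6 Ctrl libraries were within 9.18 to 10.05 CPM, a mean of 9.52 ± 0.289 CPM (SD, n = 6). Ctrl 1, Ctrl 2 and Ctrl 6, in which no CD3 count was found, stood at 9.48, 9.44 and 9.57 CPM, and Ctrl 5 at 9.41 CPM. In iKO the values fell into 3 levels, 10.3 CPM in iKO 1, 20.4 and 21.4 in iKO 2 and iKO 3, and 42.3, 40.4 and 44.0 in iKO 4 to 6. Even iKO 1 was above every Ctrl library, though close to the highest. Tnfrsf9 had a log2 fold change of 1.65 ± 0.31 (SE, edgeR, adjusted p = 0.00124).

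Tnfrsf14 (ENSMUSG00000042333, mm10 chromosome 4, 154921933 to 154928563, minus strand) encodes HVEM, a receptor for LIGHT that also binds the inhibitory receptors BTLA and CD160. It ranged from 1.66 to 3.45 CPM in Ctrl (median 2.14) and from 4.81 to 19.8 CPM in iKO (median 15.3), without overlap. Its log2 fold change of 2.58 ± 0.32 had the smallest adjusted p of the 9 genes (SE, edgeR, adjusted p = 5.29e-05). Cd27 (ENSMUSG00000030336, mm10 chromosome 6, 125232622 to 125237010, minus strand), the receptor for CD70, ranged from 0.117 to 0.343 CPM in Ctrl. In iKO 1 it was at 0.388 CPM, just above the highest Ctrl library, and in the other 5 iKO libraries at 3.83 to 9.71 CPM. The iKO 1 value rests on 12 counts and that of Ctrl 1, the highest Ctrl library, on 16, so these 2 are not resolved. The log2 fold change of Cd27 was 4.32 ± 0.57 (SE, edgeR, adjusted p = 9.33e-05), and 5.54% of its exon bases are shared with Mir8113, which had 0 counts.

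Tnfrsf4 (ENSMUSG00000029075, mm10 chromosome 4, 156013843 to 156016612, plus strand), which encodes OX40, was at 0.150 to 0.460 CPM in Ctrl and at 0.388 to 4.75 CPM in iKO. Only iKO 1, with 12 counts, fell within the Ctrl range, and the other iKO libraries held 58 to 140 counts. Across all libraries this gave a log2 fold change of 3.45 ± 0.51 (SE, edgeR, adjusted p = 0.000147). Its neighbour Tnfrsf18 (ENSMUSG00000041954, mm10 chromosome 4, 156026164 to 156028895, plus strand), which encodes GITR, was at 0.197 to 0.910 CPM in Ctrl and at 0.711 to 3.39 CPM in iKO. Here Ctrl 5 exceeded iKO 1, and the 5 other iKO libraries, at 1.56 CPM or more, exceeded every Ctrl library. Tnfrsf18 had a log2 fold change of 2.41 ± 0.43 (SE, edgeR, adjusted p = 0.000541). The antisense gene Gm16008 shares 27.2% of the exon bases of Tnfrsf18 and was itself higher in iKO (log2 fold change 1.27, edgeR, adjusted p = 0.0168), so the 2 cannot be fully told apart in libraries without strand.

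Tnfrsf4 and Tnfrsf18 lie 9551 bases apart, and 4 of the 10 genes are on chromosome 4, over a span of 5.11 Mb. Of 5 other tested protein-coding genes within 100 kb, C1qtnf12, a secreted C1q-related protein, was higher (log2 fold change 1.65) and 9430015G10Rik was lower (-0.48). Sdf4, which ends next to Tnfrsf4, had a log2 fold change of 0.056, B3galt6 of -0.039 and Ube2j2 of -0.084, and none of the 3 passed the test (edgeR, adjusted p = 0.484, 0.838 and 0.386).

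Scaled by the deposited gene length, the levels of the members can be set in order. In Ctrl the mean was highest for Tnfrsf9, at 3.50 CPM per kb, then for Tnfrsf14, at 1.65, and each was above the next gene in all 6 libraries. Il2rg (0.514) and Ikzf2 (0.439) came next, but Il2rg was the higher in 1 of 6 libraries only, Ctrl 5, where it reached 1.19, so that the order of these 2 means rests on that library. Tnfrsf18 (0.282), Tnfrsf4 (0.188), Il2rb (0.144) and Cd27 (0.0983) followed. Tnfrsf18 was above Tnfrsf4, and Tnfrsf4 above Il2rb, in 5 of 6 libraries, but Il2rb was above Cd27 in 2 of 6 only, with its highest level, 0.553, in Ctrl 5. Il2ra (0.0217) and Foxp3 (0.0214) were last, with Il2ra at 0 counts in every Ctrl library but Ctrl 5. In iKO the first 4 were Il2rb at 11.2, Tnfrsf9 at 10.9, Tnfrsf14 at 9.88 and Il2rg at 8.96 CPM per kb. Il2rb was above Tnfrsf9 in 3 of 6 libraries, so their order is not resolved, and Tnfrsf9 was above Tnfrsf14 in 4 and Tnfrsf14 above Il2rg in 5. Il2rg was above Tnfrsf4 (2.09) in all 6, and Cd27 (2.01), Tnfrsf18 (1.497), Ikzf2 (0.865), Il2ra (0.815) and Foxp3 (0.241) came after. Of these, Tnfrsf4 exceeded Cd27 in 4 of 6 libraries and Ikzf2 exceeded Il2ra in 2, and Il2ra exceeded Foxp3 in all 6.

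**Figure D2:**
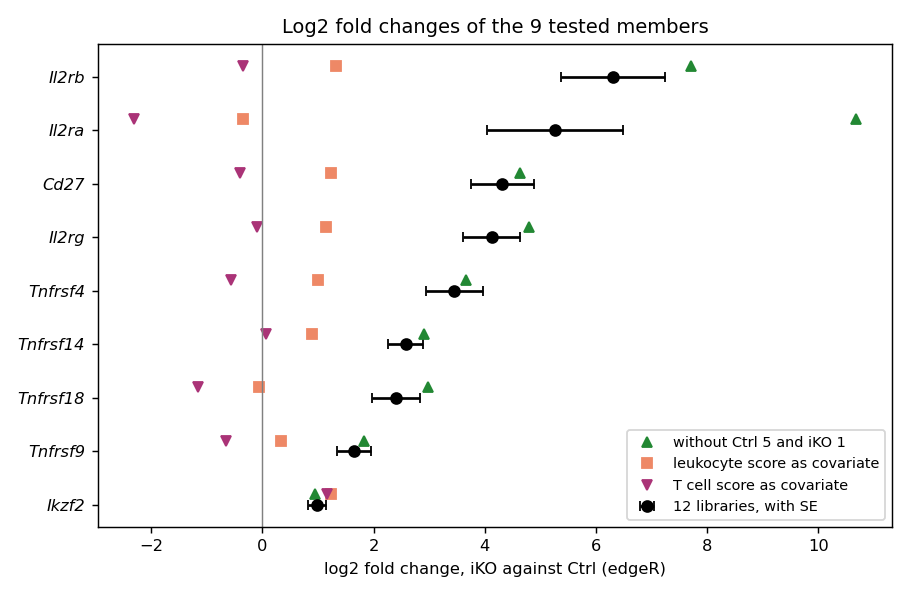
Log2 fold change of iKO against Ctrl for the 9 tested genes (horizontal axis, edgeR), with black points and SE bars for all 12 libraries, and coloured symbols without Ctrl 5 and iKO 1 and with a leukocyte or a T cell score as covariate. The black points lie between 0.98 and 6.31, and the points with the T cell score between -2.31 and 1.15.

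The members were next set against T cell transcripts. In the 7 libraries with at least 20 CD3 chain counts, Ctrl 5 and the 6 iKO libraries, each gene's counts were expressed per 100 CD3 counts, as a description over libraries that share their depth. Il2rb was the steadiest, from 147 in iKO 1 to 212 in iKO 4, with Ctrl 5 at 195 inside that range. Tnfrsf4 lay between 9.28 and 18.2 and Cd27 between 12.6 and 25.3. Foxp3 lay between 2.62 and 5.28 in 6 of the 7 libraries, and in iKO 2, with 6 counts, at 0.805. Its values in Ctrl 5 and iKO 1 rest on only 2 and 5 Foxp3 counts, so its steadiness is not resolved.

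Other members were high relative to CD3 where T cell transcripts were few. Tnfrsf9 reached 775 in Ctrl 5 and 336 in iKO 1, and 85.6 to 124 in iKO 2 to 6. Ikzf2 reached 280 in both and 26.6 to 50.9 elsewhere, Tnfrsf14 284 and 157 against 43.5 to 71.2, and Tnfrsf18 75.0 and 23.2 against 6.58 to 10.4. Il2rg stood at 234 and 139 against 71.0 to 110. Il2ra was high in Ctrl 5 only, at 61.4. In iKO 1 it was at 12.6, the lowest of the 7 libraries, and in iKO 2 to 6 at 15.7 to 26.2. With 1 Ctrl library no comparison of the groups can be made on this scale.

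**Figure D3:**
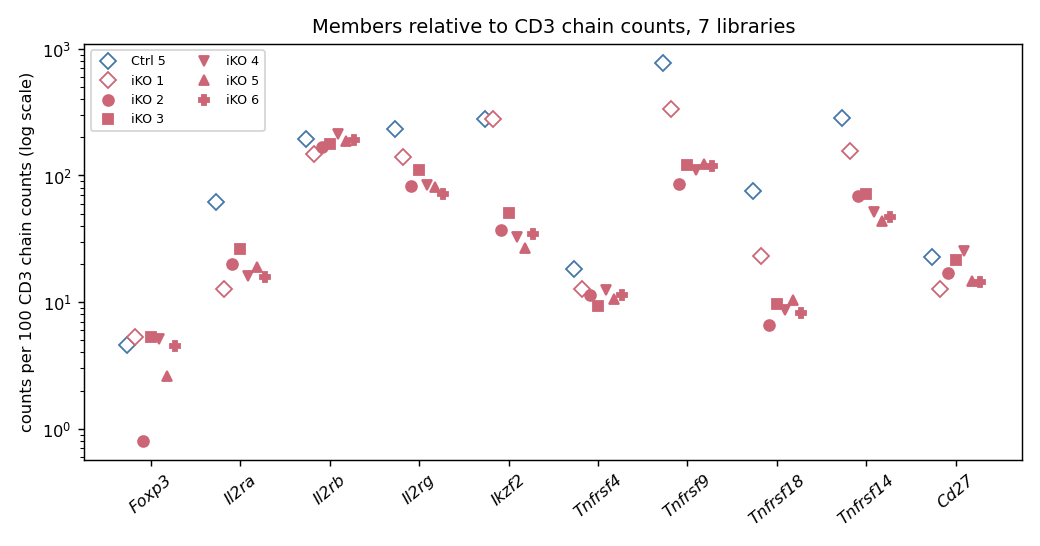
Counts of each of the 10 genes per 100 CD3 chain counts (vertical axis, log scale) in the 7 libraries with at least 20 CD3 counts, 1 symbol per library. Il2rb spans 147 to 212, whereas Tnfrsf9 spans 85.6 to 775 with Ctrl 5 at the top.

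**Figure D4:**
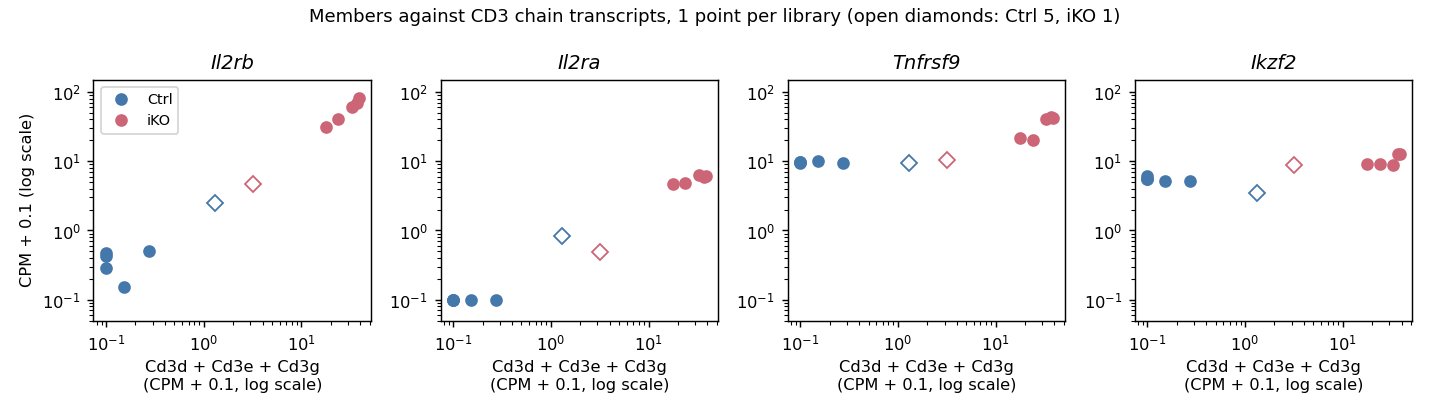
CPM of Il2rb, Il2ra, Tnfrsf9 and Ikzf2 (vertical axes) against the summed CPM of Cd3d, Cd3e and Cd3g (horizontal axes), each plus 0.1 on log scales, 1 point per library, with open diamonds for Ctrl 5 and iKO 1. Tnfrsf9 stays within 9.18 to 10.05 CPM over the 6 Ctrl libraries, and Il2rb rises from 0.0527 to 81.4 CPM over the 12.

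With the leukocyte score as a covariate, 0 of the 9 genes were called (edgeR, 3 at an unadjusted p under 0.05), against 6.56% of tested genes higher and 6.84% lower. The log2 fold changes were then 1.33 for Il2rb, 1.24 for Ikzf2 (the smallest adjusted p, 0.0520), 1.24 for Cd27, 1.15 for Il2rg, 1.01 for Tnfrsf4, 0.89 for Tnfrsf14 and 0.33 for Tnfrsf9. Il2ra (-0.36) and Tnfrsf18 (-0.068) changed sign. With the T cell score, the mean log2 CPM of the CD3 chains, 0 of 9 were called as well (edgeR, 1 at an unadjusted p under 0.05), against 2.61% and 2.29% of tested genes. Ikzf2 then had 1.15 and Tnfrsf14 0.059, and the other 7 were negative, from -0.094 for Il2rg to -2.31 for Il2ra. Both scores differ between the groups, the T cell score without overlap, so the group and the scores cannot be told apart where only Ctrl 5 and iKO 1 lie near each other.

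The ligands and partners of these receptors were a list of 8 genes, of which 4 passed the filter. Btla, an inhibitory receptor that binds HVEM, rose with a log2 fold change of 3.53 ± 0.64, from 0.276 to 3.24 CPM (edgeR, adjusted p = 0.000735). Cd160, another partner of HVEM, rose by 2.23 ± 0.42 and Tnfsf9, the ligand of CD137, by 0.33 ± 0.13 (edgeR, adjusted p = 0.0457), from 9.36 to 11.8 CPM. Tnfsf18, the GITR ligand, missed the threshold at 1.33 (edgeR, adjusted p = 0.0528), and the median of the 4 was 1.78. The other 4 are given by their counts, named after their values were seen: Tnfsf4, the OX40 ligand, had 0 in Ctrl and 138 in iKO, Tnfsf14, which encodes LIGHT, 13 and 332, Lta 6 and 37, and Cd70 8 and 14. The number called higher changed when single libraries were left out, and the filter was rerun each time. It was 5 without Ctrl 2 or Ctrl 3 and 6 without Ctrl 5 or iKO 1, which includes genes outside the 4 that newly passed the filter. Without iKO 2, iKO 3, iKO 4 or iKO 5 it was 2, so at least 1 of the 3 calls was lost there.

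Of 23 other TNF receptor family genes 20 were tested, and 12 were higher and 1 lower, with a median log2 fold change of 1.04. Tnfrsf1a, the broadly expressed first TNF receptor, rose from 119 to 177 CPM (0.57 ± 0.07), Tnfrsf1b, the second, from 3.74 to 72.7 CPM (4.29 ± 0.76), and Cd40, a receptor of antigen-presenting cells, from 0.300 to 19.1 CPM (6.04 ± 1.13). Tnfrsf10b, a death receptor, fell from 19.2 to 13.6 CPM (log2 fold change -0.50 ± 0.10, edgeR, adjusted p = 0.00124). Among the 13 TRAF adaptors and signalling genes 8 were higher and 2 lower, with a median of 0.33. Birc3, a ubiquitin ligase of the TNF receptor complex, rose by 2.11 ± 0.24 and Traf5, an adaptor of OX40, GITR, HVEM and CD27, by 2.31 ± 0.32. Map3k14, the kinase of the noncanonical NF-kappaB pathway, rose by 1.58 ± 0.20 and the kinase gene Ripk1 by 0.67 ± 0.07.

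Around the IL-2 receptor, 3 of 8 listed cytokines were tested. All but Il13 and Tslp, which were not tested, signal through the common gamma chain. Il15, which signals through the beta and gamma chains, rose from 1.97 to 6.87 CPM (log2 fold change 1.80 ± 0.20, edgeR, adjusted p = 1.98e-05) and Il7 from 0.302 to 1.05 CPM (1.78 ± 0.53, edgeR, adjusted p = 0.0131), while Il4 did not pass (edgeR, adjusted p = 0.556). Il2 itself had 9 Ctrl and 16 iKO counts and was not tested, and Il9 had 0 in all libraries. All 6 tested receptor chains for these cytokines, of 7 listed, were higher, with a median of 3.15. Il15ra rose by 2.81 ± 0.31 and Il4ra by 3.49 ± 0.55. Il13ra1, a chain for IL-13, rose by 1.52 ± 0.18 and Crlf2, the receptor chain for TSLP, by 1.97 ± 0.30. These were named by their small p, and the receptors of the last 2 do not contain the gamma chain. Of the 16 genes of IL-2 receptor signalling 13 were higher and 1 lower, with a median of 0.51. The receptor-bound kinases Jak1 and Jak3 rose by 0.58 ± 0.06 and 1.51 ± 0.21, the transcription factor gene Stat5b by 0.44 ± 0.05, and Socs1, a feedback inhibitor, by 2.52 ± 0.29.

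Of 23 further genes associated with regulatory T cells 16 were tested, and 15 were higher and 0 lower, with a median of 2.24. Ctla4, their inhibitory receptor, went from 4 to 1953 counts (log2 fold change 8.98 ± 0.85) and Icos, a costimulatory receptor, from 10 to 841 (6.58 ± 0.73). Nrp1 rose from 24.5 to 61.8 CPM (1.34 ± 0.16) and Fgl2 from 5.96 to 197 CPM (5.05 ± 0.67). These genes are also used by other cells, Ctla4 and Icos by activated T cells in general, Nrp1 by endothelial cells and Fgl2 by macrophages. Among 20 Ikaros family, Foxp family and T helper factors 13 were higher and 0 lower, with a median of 0.98, and the adjusted p was smallest for Nfatc1 (1.75 ± 0.16), Runx1 (1.17 ± 0.12), Bcl6 (1.41 ± 0.15) and Satb1 (4.69 ± 0.62). With the scores as covariates most of these calls were lost, as those of the members were. With the leukocyte score 1 of the regulatory T cell associated genes, 2 of the IL-2 signalling genes and 1 of the TRAF list were higher (edgeR, 4 in each at an unadjusted p under 0.05). No gene was then called higher among the ligands and partners or the other TNF receptors (edgeR, 0 also at an unadjusted p). Nor was any among the listed cytokines, their receptor chains or the Ikaros list. Of these 3 lists, 1, 2 and 7 genes were higher at an unadjusted p under 0.05 (edgeR). Of all tested genes 6.56% were then called higher and 6.84% lower. With the T cell score 0 were called higher in each of these lists, where 2.61% of all tested genes were called higher and 2.29% lower. At an unadjusted p under 0.05 (edgeR), 4 of the IL-2 signalling genes and 3 of the TRAF list were then higher. So were 1 of the Ikaros list and 1 of the regulatory T cell associated genes. Lower at that p were 3 each of the other TNF receptors, the TRAF list and the receptor chains, and 2 of the regulatory T cell associated genes. With the leukocyte score these 4 numbers were 1, 2, 0 and 1, and 1 IL-2 signalling gene was lower. With each score 1 of the other TNF receptors and 1 of the TRAF list were called lower.

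Markers of the cells in which these genes are known moved in the same direction, and their part in the members' changes was not tested beyond the covariates. All 15 tested of 16 T cell markers were higher, with a median of 6.59. The summed level of the 16 was 17.3 to 28.9 CPM in Ctrl and 31.3 to 271 CPM in iKO. In Ctrl this sum was mainly Thy1 and Lck, with means of 15.4 and 4.59 CPM. Every other marker of the list had a Ctrl mean of 0.220 CPM or less. Lck, Cd5, Cd28 and Cd8b1 had the smallest p, with log2 fold changes of 1.93, 6.29, 6.76 and 7.76. The coreceptor gene Cd4, which regulatory T cells carry, was at 0.323 to 3.84 CPM in iKO, and Cd8a, that of cytotoxic T cells, at 2.52 to 44.8 CPM. Natural killer cell markers, which can also stand beside Il2rb, passed the filter for 3 of 7 genes, all higher (Klrd1 7.18, Klrk1 6.68, Eomes 2.57), and their summed level was 0.320 to 2.18 CPM in Ctrl and 2.97 to 58.6 CPM in iKO. All 7 were tested and called when Ctrl 5 or iKO 1, or any 1 other Ctrl library, was left out.

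Other leukocytes were represented as well. Leukocyte markers were higher for 9 of 10 genes (median 5.07), macrophage and monocyte markers for 10 of 12 (median 4.39), dendritic cell markers for 5 of the 6 tested of 9, neutrophil markers for 3 of 4 of 7, and B cell and plasma cell markers for 2 of 3 of 7. The macrophage and monocyte markers summed to 22.3 to 470 CPM in Ctrl, the highest of these in Ctrl 5, and to 267 to 2435 CPM in iKO. No mast cell or basophil marker was tested of 6, at 0.0438 to 5.65 CPM summed in Ctrl and 0.237 to 7.60 CPM in iKO. Among cells of the tumour tissue, endothelial markers were higher for 3 of 6 genes and lower for 1, with Pecam1 itself from 4.18 to 10.9 CPM, fibroblast markers for 1 of 7, and keratinocyte markers for 4 of the 4 tested of 5. Melanocyte and melanoma markers were lower for 7 of 8 (median -0.40), Mitf, the pigment cell master regulator, by a log2 fold change of -0.44 and Sox10 of -0.20. Without Ctrl 5 and iKO 1 the numbers higher were 16 T cell, 7 natural killer, 9 leukocyte, 12 macrophage, 7 dendritic, 5 neutrophil, 3 B cell, 2 endothelial, 1 fibroblast and 3 keratinocyte markers. Leaving out 1 library moved the counts of B cell markers to 4 (Ctrl 4 or Ctrl 6), of neutrophil markers to 5 (Ctrl 5 or iKO 1), of fibroblast markers to 4 (iKO 6) and of keratinocyte markers to 2 (Ctrl 1, Ctrl 5 or iKO 2). The filter was rerun for each set of libraries, so the genes tested can differ as well.

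The genes whose levels ran most like those of Foxp3 and of Tnfrsf14 were found by Pearson's r of log2 CPM over the 12 libraries, which share the group difference and the leukocyte content, so that r is a description only. For Foxp3 they were Ambra1, Dnm2, Ccdc88c, Wdr81 and Cyfip1, each with r = 0.96. Ambra1 went from 52.6 to 66.4 CPM and Dnm2 from 112 to 145 CPM, so these are well expressed genes with small differences. Among the other members the likeness to Foxp3 ranged from 0.79 for Il2rb to 0.91 for Tnfrsf9. For Tnfrsf14 the leading genes were Dnase2a, Naip6, Stard3, H2-T24 and Cd2, each with r = 0.99, and Cd2 is a T cell and natural killer cell adhesion molecule that went from 0.0822 to 8.01 CPM. The members' likeness to Tnfrsf14 ran from 0.82 for Ikzf2 to 0.98 for Il2rg and Cd27.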

How the data were processed

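Bulk RNA of 12 sorted tumours was analysed from counts per Ensembl gene that the authors deposited, whole read numbers with no scaling for length or depth. Their genome build, per the submitters' processing notes, was mm10. For aligner and counting program the entry is: not given in the sources used here. Libraries were poly-T selected and kept no strand, per the labels' protocols. The labels call the library source single cell, but the table holds 1 column per tumour, and they name 1 sequencing batch.

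The groups were compared with edgeR 4.0.16 in R 4.3.3 (quasi-likelihood test, robust, TMM, group as the only term) over the 16164 of 54532 genes that passed its filter (minimum count 10, minimum total 15), with Benjamini-Hochberg adjustment over all of them and a threshold of 0.05. SEs of log2 fold changes are their size over the square root of F. CPM are TMM-scaled. CPM per kb divide by the deposited gene length. Ratios of summed counts have exact 95% intervals. Floors are 3 counts, and both cover counting error only. As a check for libraries deposited in duplicate, same-group pairs were compared with sampling noise: all 30 differed by more (chi-square per degree of freedom at least 7.47), so none were merged. This does not show that libraries came from separate mice. Alternatives used DESeq2 1.42.0 and limma 3.58.1. Scripts were tested on simulated data.

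Exon overlaps came from GENCODE M21 and promoter sequences from RefSeq (GRCm38.p6, the assembly mm10 names). The members and gene lists were chosen with earlier results of these data known. Named genes were the 10 members, Trex1, Ptprc and Pecam1, up to 4 genes with the smallest p of those called in each list, and the 5 genes most like Foxp3 and Tnfrsf14. Other genes (untested or uncalled list genes, Cd4, Cd8a, the CD3 chains, Xist, and genes that overlap or neighbour members) were named outside this rule, after their values were seen.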

Additional observations from a re-analysis of the deposited data

Results flagged for a closer look

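In 20 groups of 6 libraries (10 genes, each in Ctrl and iKO), 1 library lay far from the other 5 in 9 cases, judged by Dixon's ratio of gap to range on log2(CPM + 0.5) against its 95% limit, where chance gives about 1 in 20 for a single group. The 10 genes were read in the same 12 libraries, so the 20 groups are not independent and the 9 cannot be set against that rate. All 9 were Ctrl 5 or iKO 1. For Il2ra in Ctrl the other 5 libraries were at 0, which fixes the ratio at 1.0. Ctrl 5 was the high library of its group for Il2ra (0.745 CPM), Il2rb (2.37 CPM) and Il2rg (2.84 CPM), all 3 chains of the IL-2 receptor, and the low one for Ikzf2 (3.39 CPM). The low iKO library was iKO 1 for Il2ra (0.388 CPM), Il2rb (4.52 CPM), Il2rg (4.27 CPM), Tnfrsf14 (4.81 CPM) and Cd27 (0.388 CPM). Ctrl 5 was also the Ctrl library with the highest Ptprc (15.6 CPM) and iKO 1 the iKO library with the lowest (17.4 CPM), and the part of leukocyte content in these values was not tested.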

How the results depend on the processing

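All 9 tested members stayed higher in iKO with each of the 12 libraries left out in turn, with DESeq2 size factors, DESeq2's Wald test, limma voom, no filter, without Ctrl 5 and iKO 1, and without iKO 2 and iKO 3. With no filter Foxp3 was also called, which made 10, where 4145 of all genes were higher and 3795 lower. A filter of at least 1 CPM in 6 libraries left 5 members tested, all 5 called, where 3645 genes were higher and 3195 lower. A gene close to 0 in Ctrl can pass that filter only through its iKO libraries, so these counts are no support for a pattern. With each library left out in turn, genes higher ranged from 3707 to 4484 and lower from 2671 to 3750 (4037 and 3464 with all). With covariates the counts moved by more than 1.5 times: 1060 genes were higher and 1105 lower with the leukocyte score, and 422 and 370 with the T cell score, and 0 members were called with either. The log2 fold change turned negative with the leukocyte score for Il2ra (-0.36) and Tnfrsf18 (-0.068). With the T cell score it did so for Il2ra (-2.31), Il2rb (-0.35), Il2rg (-0.094), Tnfrsf4 (-0.56), Tnfrsf9 (-0.65), Tnfrsf18 (-1.16) and Cd27 (-0.40). The cause was not tested. Leaving out 1 library moved the fold of Il2ra and Il2rb by more than 1.5 times, in each case without Ctrl 5 (log2 fold changes of 10.42, against a group at 0 and so no bound, and 7.48).

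Same-numbered Ctrl and iKO libraries deviated together little, if at all (r from -0.13 to 0.25). These r give no sign of pairing by replicate number but cannot exclude it. With the replicate block 3489 genes were higher and 2984 lower, and all 9 members were called. Under the block Il7 and Il15 gave 1 call in place of 2, and the ligands and partners 2 in place of 3, as they also did without iKO 2 and iKO 3. Depth limits Foxp3 the most, with 21 Ctrl counts.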
